A study of Mus musculus with 5 samples.

Results

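Iron uptake, storage and the control of hepcidin were followed in Ago HITS-CLIP of mouse liver through 10 genes, chosen as every listed interaction whose gene column named 1 of these symbols: Tfrc, Tfr2, Trf, Hamp, Hfe, Hfe2, Fth1, Ftl1, Slc40a1 and Bmp6. The tables named 22714 genes in all. HITS-CLIP crosslinks RNA to Ago with ultraviolet light, pulls Ago down with antibodies and reads the bound RNA fragments by sequencing. Livers of C57BL/6 mice (C57BL/6J in the study's methods) were sampled before birth at e12.5, e15.5 and e18.5 (embryonic days), 7 days after birth (P7) and as adults. Each stage was given as 1 sample with 1 table, called a library here, so stages are compared without a test. Each embryonic table holds 2 lists, which were joined, and the labels do not say whether these are separate libraries. The study's methods speak of biological replicates without tying them to the lists. The embryonic libraries were made with the Ago2 antibodies of Wako and Abnova, and the P7 and adult libraries with Ago2 and the Ago1 antibody of MBL, so antibody and birth cannot be told apart. In bulk tissue, fewer cells of a type and less RNA per cell cannot be told apart either.

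Hepatocytes make transferrin (Trf), the plasma carrier of iron, and cells take up iron-loaded transferrin through the receptor encoded by Tfrc. Ferritin, built of the Fth1 and Ftl1 chains, stores iron inside cells, and ferroportin (Slc40a1) exports it. Hepcidin (Hamp), a peptide hormone of hepatocytes, binds ferroportin and causes its loss from the membrane, and its transcription is raised by BMP6 with the co-receptor hemojuvelin (Hfe2) and by the iron sensors TFR2 and HFE. The fetal liver is also the site of red cell production, and erythroblasts are heavy users of transferrin iron. In the mRNAs of Tfrc, the ferritins and ferroportin, hairpins named iron-responsive elements bind the IRP proteins when iron is low.

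The level of a gene was the number of reads of all its clusters per 1000000 summed cluster reads of the library (rpm), where the reads of a cluster are the highest number deposited for it. The tables give a read number with each seed match, so the reads at a match can be fewer than those of its cluster, and matches in 1 cluster share reads. The level of a gene measures RNA bound by Ago and is not an mRNA level. A cluster entered the tables with at least 5 reads and a seed match, so the absence of a listed cluster does not show that a gene had no reads. The libraries held 13008703 to 44867326 summed cluster reads in 76948 to 208193 clusters. Exact Poisson 95% intervals are given, and they cover counting error only. All 8 hepatocyte markers on the list, from Alb to Serpina1a, had reads in every library, and their summed level was 764, 2511, 7972, 8056 and 10077 rpm from e12.5 to adult.

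The fragments on which the results below turn are shown first. Each line gives the mRNA stretch that the tables paired with a miRNA, 5′ to 3′, with the bases of the seed match in capitals. The miRNA named is 1 of those listed for the match, and others with the same seed match there as well. All 2967 fragments checked stood at their listed positions in GRCm38 (mm10).
Tfrc 3′UTR, miR-30a-5p, chr16:32630864-32630885, plus strand: tggaccaatttgtcTGTTTACA
Tfrc 3′UTR, miR-194-5p, chr16:32631674-32631695, plus strand: acagtgatctccataTGTTACA
Tfrc 3′UTR, miR-144-3p, chr16:32632683-32632702, plus strand: acttgccaacctATACTGTc
Hfe2 3′UTR, miR-122-5p, chr3:96528850-96528871, plus strand: tgggccagggttttgCACTCCA
Slc40a1 coding sequence, miR-142a-3p, chr1:45911304-45911326, minus strand: tgggctttgactgtatCACTACA
Slc40a1 3′UTR, miR-136-5p, chr1:45908305-45908326, minus strand: ttttgatgcactttcATGGAGA
Fth1 coding sequence, miR-136-5p, chr19:9984584-9984605, plus strand: agcgggctgaatgcAATGGAGt
Trf coding sequence, miR-125b-5p, chr9:103210602-103210623, minus strand: ccaaggaccttctgtTCAGGGA
Hamp coding sequence, miR-19b-3p, chr7:30942691-30942713, minus strand: tacagagctgcagccTTTGCACg

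The mature miRNAs that match these stretches, apart from miR-122-5p, are given from RefSeq (GRCm38.p6) with the seed, bases 2 to 8, in capitals. Of the 192 miRNAs looked up, 168 were found there under their names.
miR-30a-5p: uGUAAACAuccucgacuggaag
miR-194-5p: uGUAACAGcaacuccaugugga
miR-144-3p: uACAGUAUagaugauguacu
miR-142a-3p: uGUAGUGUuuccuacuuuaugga
miR-136-5p: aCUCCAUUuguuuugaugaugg
miR-125b-5p: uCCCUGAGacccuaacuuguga
miR-19b-3p: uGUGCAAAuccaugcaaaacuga

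Cluster reads of Tfrc, the receptor for iron uptake, fell away towards adulthood. The gene lies at chr16:32608920-32632794 on the plus strand of GRCm38. From e12.5 to adult, Tfrc had 293 rpm (interval 288 to 298), 546 rpm (535 to 557), 142 rpm (136 to 149), 54.9 rpm (51.4 to 58.6) and 6.51 rpm (5.55 to 7.59). The e15.5 library was highest, every later library was lower than the one before it, and no intervals overlapped. The lists of an embryonic table differed by more than these intervals, with 413 and 234 rpm at e12.5, 453 and 580 rpm at e15.5 and 160 and 74.8 rpm at e18.5, and e15.5 was highest with either. The reads behind these values numbered 13132, 9017, 1847, 906 and 162. On the log2 scale after adding 1 rpm, Tfrc was at -1.04 at e18.5 against e12.5, at -2.90 in adult liver against P7, where the antibodies were the same, and at -5.29 in adult liver against e12.5.

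**Figure D1:**
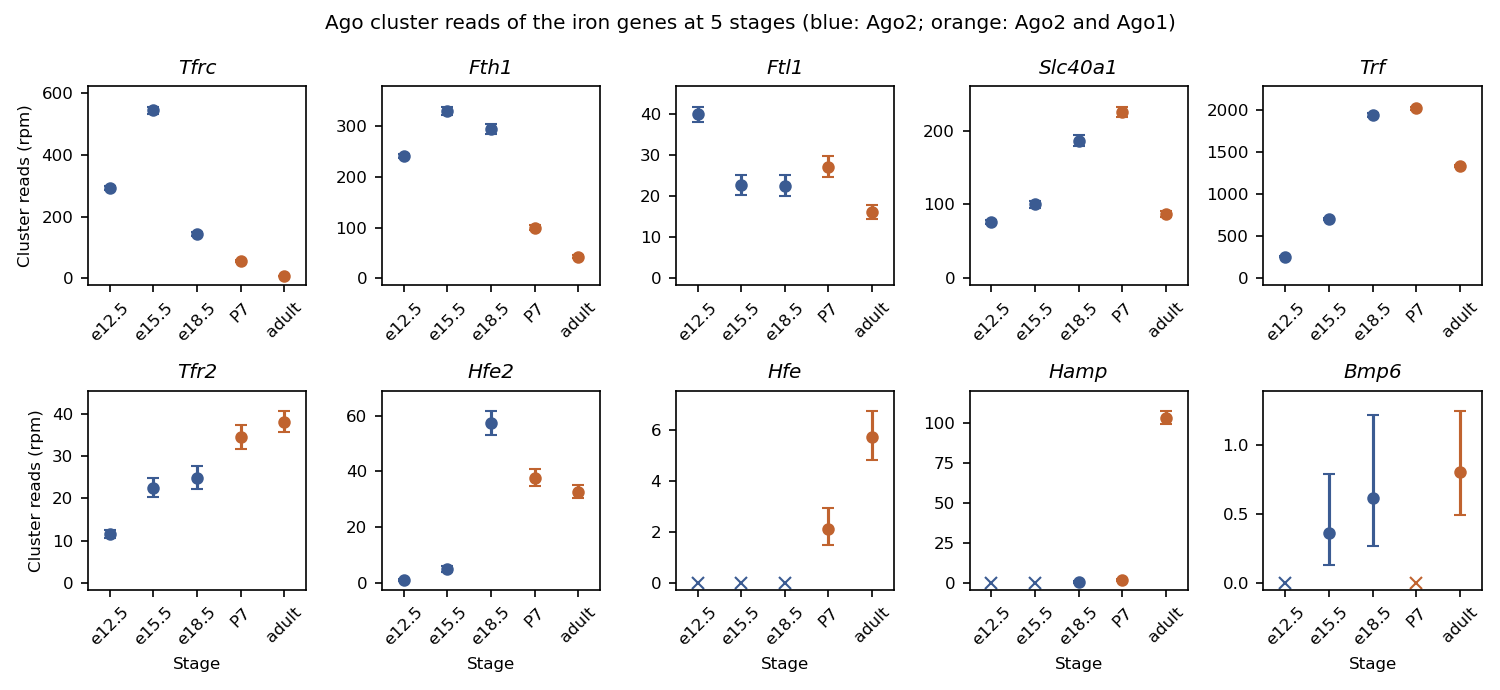
Cluster reads (rpm, linear axis) of each of the 10 iron genes by stage, with 1 library per stage. Points are values, bars are exact Poisson 95% intervals of counting error, crosses mark libraries with no listed cluster, blue stands for Ago2 and orange for Ago2 with Ago1. Tfrc falls from 546 rpm at e15.5 to 6.51 in adult liver, while Hamp is at 103 rpm in adult liver and at no more than 1.64 before.

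The number of distinct Tfrc clusters was 56, 54, 30, 27 and 8 from e12.5 to adult, and 29, 25, 13, 11 and 1 of these lay in the 3′UTR. The coding sequence held 25, 23, 16, 15 and 5. In reads, the coding sequence was the larger part at every stage, with 66.0, 67.9, 69.7, 64.8 and 75.3% of the Tfrc reads. With only clusters of at least 1 rpm counted, the same limit in every library, the 10 genes together had 100, 111, 78, 99 and 81 clusters, against 136, 128, 108, 144 and 129 as listed.

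Markers of red cell precursors were also lowest in adult liver. The erythroid list had 12 genes, of which 10 were in the tables (Hbb-b1 and Hbb-b2 were not), and its summed level was 66088, 82157, 94323, 34659 and 2193 rpm from e12.5 to adult. The sum was highest at e18.5, where Tfrc was below its e12.5 and e15.5 levels, while Alas2, 1 of the 10, was highest at e15.5 with 663 rpm and lower in each later library, as Tfrc was. At e18.5 Alas2 gave 374 rpm of the sum, so genes with more reads set the course of the sum. The other markers are not given singly. All 10 had reads in the first 4 libraries and 7 in adult liver. The part of erythroid cells in the Tfrc values was not tested.

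**Figure D2:**
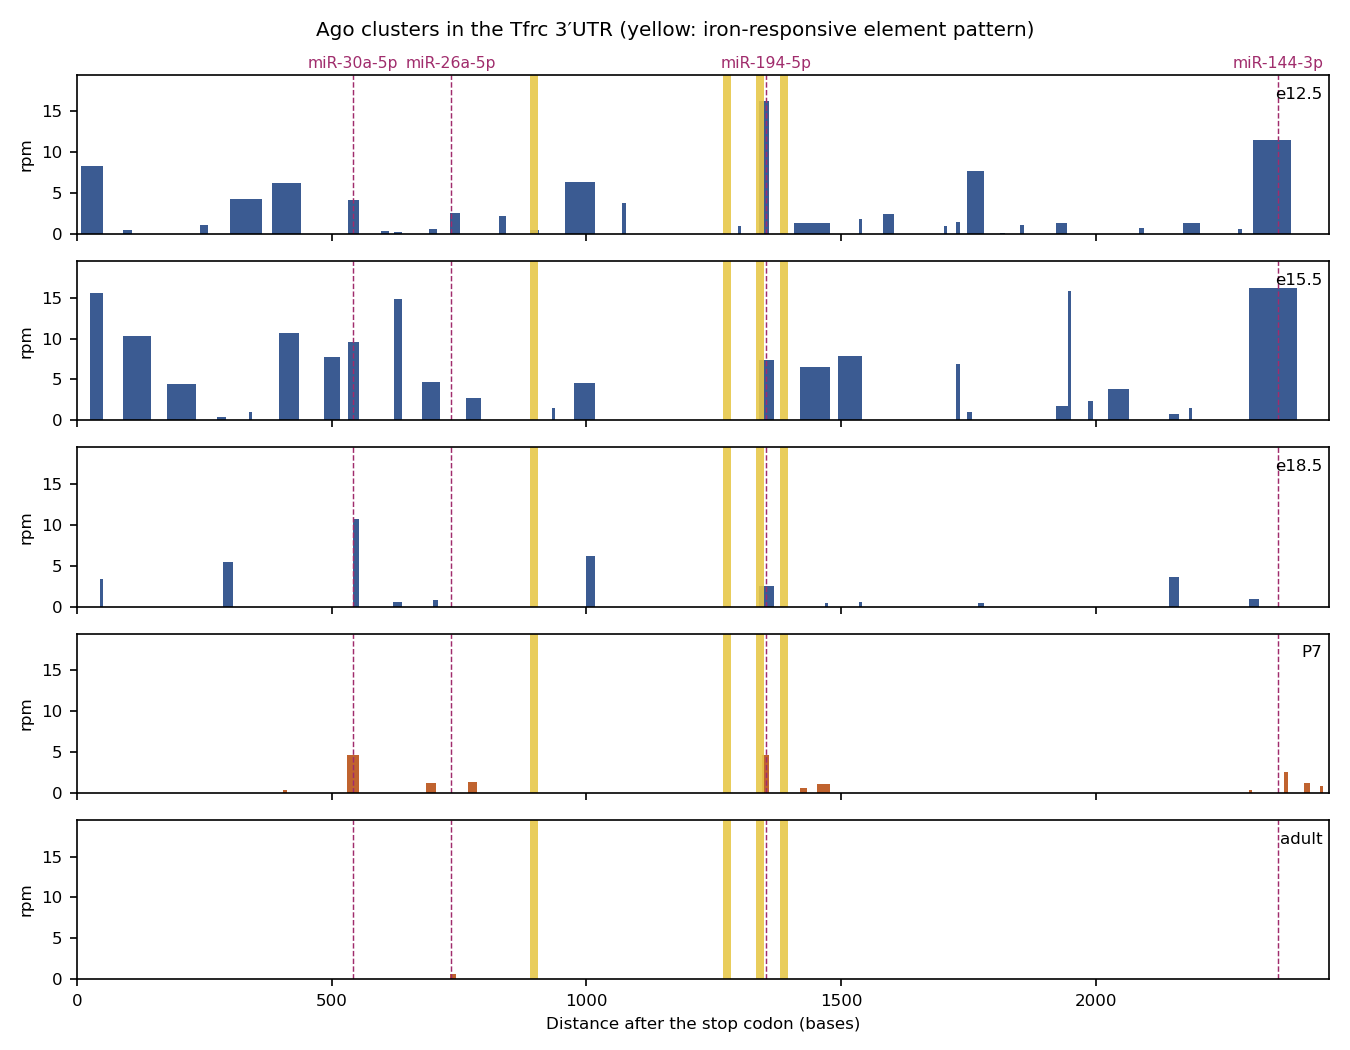
Ago clusters in the Tfrc 3′UTR by distance after the stop codon in bases (x axis), with 1 row per stage and bar height in rpm (linear, same axis in all rows). Yellow bands mark matches to the iron-responsive element pattern and dashed lines the seed matches named above them. The 29 clusters at e12.5 spread over the whole 3′UTR and 1 cluster is left in adult liver, and 1 cluster at e18.5 in a 3′UTR of another transcript is not drawn.

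No seed match in the Tfrc 3′UTR was listed in all 5 libraries. The miR-30a-5p match is an 8mer 542 bases after the stop codon, and its cluster had 4.19, 9.62, 10.8 and 4.67 rpm from e12.5 to P7 and was not listed in adult liver. As a share of all Tfrc reads this cluster held 1.43% (exact binomial 95% interval 1.24 to 1.65), 1.76% (1.502 to 2.06), 7.58% (6.41 to 8.88) and 8.499% (6.77 to 10.5) in these 4 libraries. The share at e18.5 and P7 was thus above that at the earlier stages, while the total of the gene fell. A 7mer-A1 match of miR-486a-5p, an miRNA of erythroid cells, starts 4 bases downstream in the same cluster, so the reads cannot be assigned to either miRNA.

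The miR-194-5p match, a 7mer-A1 at 1353 bases after the stop codon, had 16.3, 7.32, 2.54 and 4.61 rpm from e12.5 to P7 and was not listed in adult liver either. miR-194-5p, an miRNA of hepatocytes and gut epithelium, held 0.652, 1.68, 2.46, 9.29 and 10.01% of the miRNA reads from e12.5 to adult. It was lowest at e12.5, where its match had the most reads. The miR-144-3p match, 2359 bases after the stop codon, was listed in the first 2 libraries only, with 2.50 rpm of the 11.5 rpm of the joined cluster around it and then with 10.8 of 16.2 rpm. miR-144-3p, an miRNA of erythroid cells, held 21.7, 10.2, 9.58, 1.97 and 1.54% of the miRNA reads. The single 3′UTR cluster left in adult liver had 16 reads, 0.643 rpm, and a match of miR-26a-5p 734 bases after the stop codon.

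The 3′UTR of Tfrc is also where its iron-responsive elements lie. The pattern searched was a C, any 5 bases, the loop CAGTGN and 5 bases that pair with the first 5, with G-T pairs allowed, read on the sense strand of 1 transcript per gene. It was found in the 5′UTR of 0.0958% of 19843 genes and in the 3′UTR of 0.507% of 20517 genes with a UTR long enough to hold it. Of the 10 iron genes, Tfrc had 4 matches in its 3′UTR, and Fth1, Ftl1 and Slc40a1 had 1 each in their 5′UTR. A match is a run of letters and is not evidence of a bound element.

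The miR-194-5p fragment printed above runs into the Tfrc match that starts 1333 bases after the stop codon, and the cagtg at its beginning is the loop of that pattern. The cluster there was listed in all libraries but adult. Of the other Tfrc matches, the one at 889 bases was overlapped by a cluster at e12.5 with 0.446 rpm, and those at 1268 and 1380 bases by none. The Fth1 match in the 5′UTR was overlapped by a cluster at e12.5 (7.31 rpm) and e18.5 (5.46 rpm), and the Ftl1 match at e12.5 (1.36 rpm), e15.5 (2.72 rpm) and P7 (0.364 rpm). No listed cluster overlapped the Slc40a1 match.

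Tfr2, a further transferrin receptor and an iron sensor of hepatocytes, had 11.5, 22.5, 24.8, 34.5 and 38.1 rpm from e12.5 to adult. It was lowest at e12.5 and highest in adult liver, where Tfrc was lowest. The intervals of e15.5 (20.2 to 24.9) and e18.5 (22.1 to 27.6) overlapped, as did those of P7 (31.7 to 37.4) and adult (35.7 to 40.6). Its log2 ratio was 1.64 in adult liver against e12.5. At e15.5 the first of the lists held in that table gave 42.7 rpm and the other 15.1 rpm, and with the first lists alone Tfr2 was highest at e15.5. At e18.5 the lists gave 30.4 and 3.33 rpm, and with the second lists alone Tfr2 was lowest there.

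Trf had the most reads of the 10 genes after e12.5. Its level was 257, 700, 1943, 2018 and 1335 rpm from e12.5 to adult, lowest at e12.5 and highest at P7 (in adult liver when scaled to mRNA clusters, and at e18.5 with the first lists alone), and no intervals overlapped. The log2 ratio was 2.92 at e18.5 against e12.5, -0.60 in adult liver against P7 and 2.37 in adult liver against e12.5. Nearly all reads lay in clusters listed in the coding sequence, between 95.3 and 99.7% at every stage, but a cluster could be listed under other regions as well. At P7, 44.5% of the Trf reads also counted in the 3′UTR and 1737 of the 2018 rpm in introns. Every Trf cluster was listed under Gm20425 as well, which overlaps it, so the reads of the pair cannot be told apart. With the first list of each embryonic table, Trf was at 481 rpm at e12.5 and its log2 ratio in adult liver against e12.5 was 1.47, under the 4-fold limit.

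Of the ferritin chains, Fth1 passed the 4-fold limit in adult liver against e12.5 and Ftl1 in no comparison, with all clusters and both lists. When scaled to mRNA clusters Fth1 did not pass (-1.73), and with the first lists alone Ftl1 did (-2.19), both in adult liver against e12.5. The e12.5 lists gave 377 and 175 rpm for Fth1 and 76.7 and 21.9 rpm for Ftl1. Fth1 had 242, 330, 294, 99.5 and 42.1 rpm from e12.5 to adult. All embryonic values were above both later ones, and the log2 ratio of adult liver against e12.5 was -2.49. Ftl1 had 39.98, 22.6, 22.5, 27.1 and 16.1 rpm, highest at e12.5 (at P7 with the second lists alone) and lowest in adult liver (at e18.5 with the second lists alone or when scaled to mRNA clusters). The intervals of the 3 libraries from e15.5 to P7 overlapped, at 20.4 to 25.1, 20.02 to 25.3 and 24.6 to 29.7 rpm. Ftl2, a near copy of Ftl1, was listed with 29.8, 19.49, 18.3, 6.18 and 10.9 rpm, so part of the Ftl1 reads is uncertain.

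Slc40a1, the exporter, had 75.7, 100, 186, 225 and 87.2 rpm from e12.5 to adult. It was highest at P7, also with either list alone, and no intervals overlapped. The lists of the e12.5 table gave 94.7 and 66.3 rpm, above and below the adult value, so the order of e12.5 and adult changes with the list. Its log2 ratio was 1.29 at e18.5 against e12.5, -1.36 in adult liver against P7 and 0.20 in adult liver against e12.5. Ferroportin is made in hepatocytes and most strongly in the macrophages that recycle red cells. The 6 macrophage markers on the list summed to 10.6, 4.96, 57.6, 94.2 and 116 rpm, with reads for 3, 1, 5, 6 and 6 of them, and their part in the Slc40a1 values was not tested.

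The reads of Hamp, a short gene at chr7:30942368-30944032 on the minus strand, came almost wholly from the adult library. It had no listed cluster at e12.5 and e15.5, 6 reads at e18.5 (0.461 rpm, interval 0.169 to 1.004) and 27 reads at P7 (1.64 rpm, 1.08 to 2.38). The adult library had 2568 reads (103 rpm, 99.2 to 107). Between P7 and adult liver the log2 ratio was 5.30. The tandem copy Hamp2 was listed with 0.461, 1.64 and 100 rpm in the same 3 libraries, from 6, 27 and 2494 reads, so Hamp and Hamp2 cannot be told apart here. In adult liver, 1 coding-sequence cluster with 1699 reads held 66.2% of the Hamp reads (64.3 to 68.0). The fragment printed for Hamp lies in it, and miR-19b-3p itself held 0.0254% of the adult miRNA reads.

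Of the genes that raise hepcidin, Hfe2 had 1.09, 5.02, 57.3, 37.6 and 32.8 rpm from e12.5 to adult, out of 49, 83, 745, 621 and 816 reads. At e12.5 and e15.5 all its reads came from the second list, and at e18.5 the lists gave 62.7 and 36.7 rpm. The values from e18.5 on were all above the first 2, and the intervals of P7 (34.7 to 40.7) and adult (30.6 to 35.1) overlapped. The log2 ratio of Hfe2 was 4.80 at e18.5 against e12.5 (5.99 with the first lists alone and 3.84 with the second). In adult liver against e12.5 it was 4.01 (5.08 and 3.68). Those with the first lists depend on the 1 rpm added. Hfe had no listed cluster before birth, 2.12 rpm at P7 (1.48 to 2.95) and then 5.71 rpm in the adult (4.81 to 6.73). Bmp6, which is made mostly by liver endothelial cells, had 0.363 rpm at e15.5, 0.615 at e18.5 and 0.804 in adult liver and no listed cluster at e12.5 and P7, and it did not reach the mean of 1 rpm required for ratios.

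Levels of different genes were compared per length of the transcript. At e12.5, Fth1 had 260 rpm per kilobase, Trf 110, Tfrc 59.9, Ftl1 41.3, Slc40a1 22.5, Tfr2 3.95 and Hfe2 0.539. In adult liver, Trf had 571 rpm per kilobase, Hamp 252, Fth1 45.3, Slc40a1 25.9, Ftl1 16.6, Hfe2 16.2, Tfr2 13.0, Hfe 1.60, Tfrc 1.33 and Bmp6 0.224. Among the 7 genes listed at e12.5, Tfrc was thus the third there and the last in adult liver.

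Ratios were set beside those of all 14529 genes with a mean of at least 1 rpm, and a gene was called at 4-fold either way after adding 1 rpm. At e18.5 against e12.5, 11.5% of all genes were called higher and 13.0% lower. Of the 9 iron genes that passed, 2 were called higher, Trf and Hfe2, and none lower. In adult liver against P7, 2.03% of all genes were called higher and 14.0% lower, and of the 9 iron genes Hamp was called higher and Tfrc lower. In adult liver against e12.5, 8.04% of all genes were called higher and 29.5% lower, and of the 9 iron genes 4 were called higher (Trf, Hamp, Hfe and Hfe2) and 2 lower (Tfrc and Fth1). Those for Hamp and Hfe compare with libraries that list no cluster of the gene, so they depend on the 1 rpm added and are no fold changes.

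**Figure D3:**
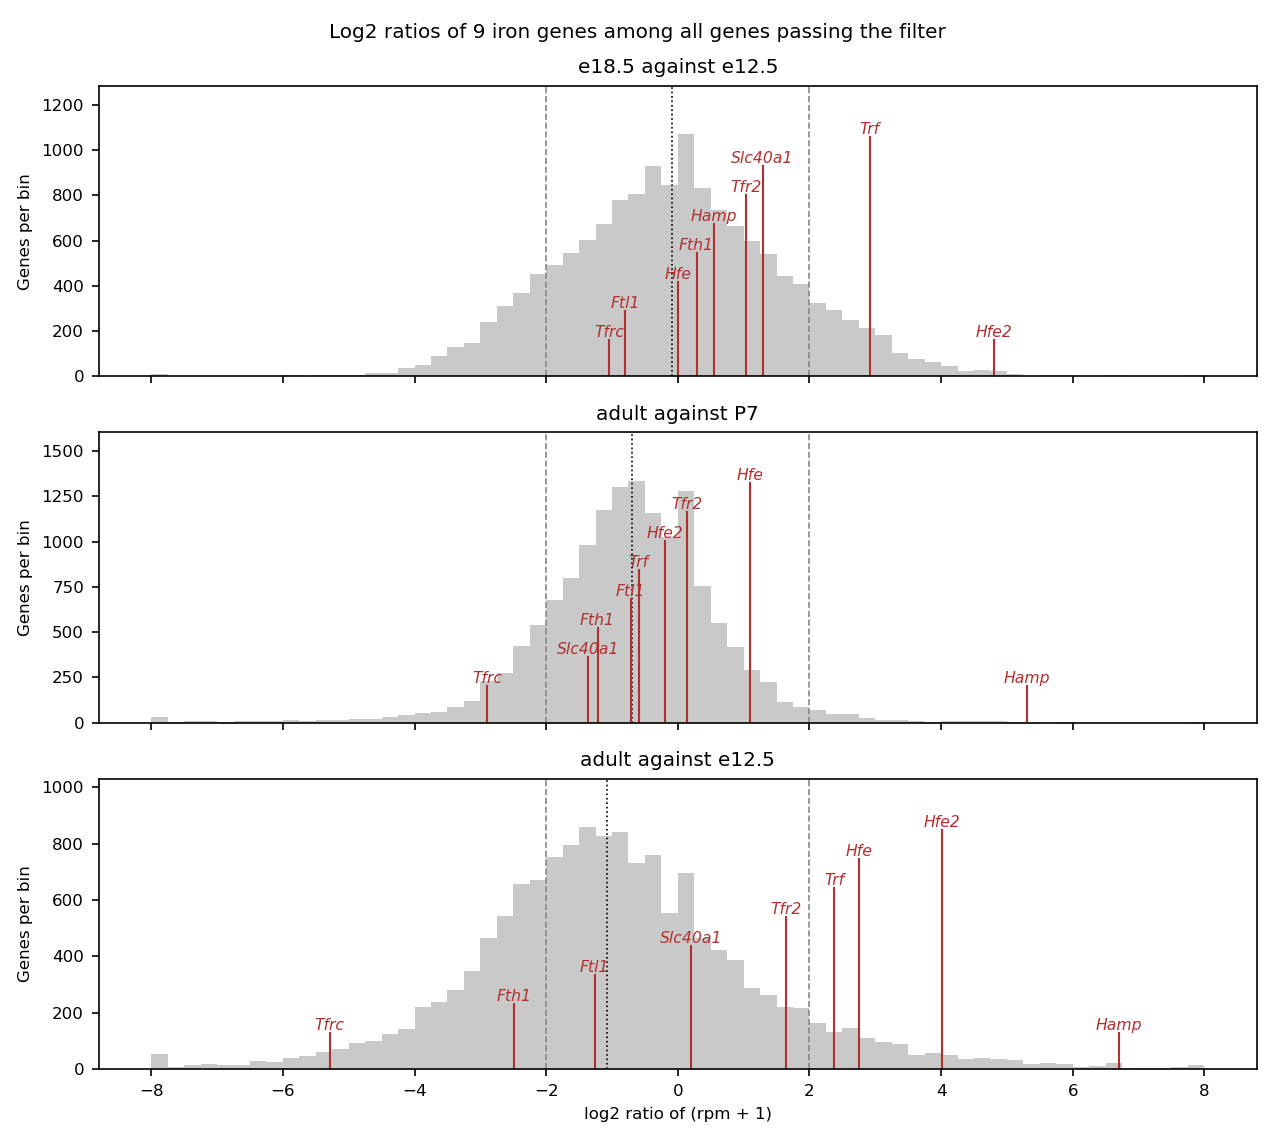
Log2 ratios of (rpm + 1) for 3 comparisons (x axis) as the number of genes per bin (y axis) among all 14529 genes passing the filter, with ratios beyond 8 drawn in the last bin. Red lines mark 9 iron genes (their height has no meaning), the dotted line the median of all genes and dashed lines the 4-fold limits. In adult liver against e12.5, Tfrc at -5.29 and Hamp at 6.70 lie at opposite ends.

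The median ratio of all genes was -0.08 at e18.5 against e12.5, -0.69 in adult liver against P7 and -1.08 in adult liver against e12.5. Relative to that median, the ratios of adult liver against e12.5 were -4.21 for Tfrc, -1.41 for Fth1, -0.18 for Ftl1, 1.28 for Slc40a1, 2.72 for Tfr2, 3.45 for Trf and 5.09 for Hfe2. The clusters of mRNA regions held 23.3, 29.7, 30.0, 20.5 and 13.5% of the cluster reads from e12.5 to adult, and scaling to them shifts the ratio of 2 levels, before 1 rpm is added, up by 0.79 in adult liver against e12.5 and by 0.60 in adult liver against P7. With the 1 rpm added, genes with low levels moved by more, as Hamp did from 6.70 to 9.58 in adult liver against e12.5. Under that scaling Fth1 was at -1.73 in adult liver against e12.5, under the 4-fold limit, and in adult liver against P7 Trf went from -0.60 to 0.01 and Hfe2 from -0.19 to 0.40, so no direction is given for these after P7. Fth1 at e18.5 against e12.5 went from 0.28 to -0.08.

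Among all genes passing the filter, 62.3% had reads in all 5 libraries, and 24.0% were highest at P7 or in adult liver, as were 5 of the 9 iron genes that passed. Of the 10 iron genes, 7 had reads in all 5 libraries (Tfrc, Tfr2, Trf, Hfe2, Fth1, Ftl1 and Slc40a1). The highest level was at P7 for Trf and Slc40a1 and in adult liver for Tfr2, Hamp, Hfe and Bmp6, which did not pass, 6 of all 10 genes (4 with the first lists alone and 8 with the second, 7 when scaled to mRNA clusters). The number of iron genes with a cluster was 7, 8, 9, 9 and 10 from e12.5 to adult, although the e12.5 library listed the most genes of all, 19061, and adult liver the fewest, 13969.

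A seed match with its miRNA was counted once per position, and those in an mRNA region numbered 2654 for the 10 genes. Of these, 244 were listed in all 5 libraries, where 0.912% of all pairs in the tables were. Trf had 158 of them, Fth1 37, Slc40a1 30, Hfe2 11 and Ftl1 8, and Tfrc, Tfr2, Hamp, Hfe and Bmp6 had none. At the other end, 49.7% of the pairs of the 10 genes were listed in 1 library only, against 75.9% of all pairs. Trf had the most reads as well.

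The Hfe2 3′UTR match of miR-122-5p, the main miRNA of hepatocytes, was among the pairs seen in all 5 libraries. It is a 7mer-A1 175 bases after the stop codon. At e12.5 it had 8 reads and at e15.5 it had 23, all from the second list of those libraries. The match had 0.178, 1.39, 2.61, 7.76 and 14.3 rpm from e12.5 to adult, each value above the one before. Of all Hfe2 reads it held 16.3% (7.32 to 29.7), 27.7% (18.4 to 38.6), 4.56% (3.18 to 6.32), 20.6% (17.5 to 24.01) and 43.5% (40.1 to 46.99). Between e18.5 and adult, across the change of antibodies, the reads at the match went from 2.61 to 14.3 rpm and those of the whole gene from 57.3 to 32.8 rpm. When scaled to mRNA clusters the gene went from 191 to 243, and the match is not given on that scale. The shares of the match are the same on either scale. miR-122-5p held 1.44, 4.33, 9.20, 12.3 and 11.2% of the miRNA reads.

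The same Hfe2 cluster held 7mer-m8 matches of miR-19a-3p, miR-19b-3p, miR-130a-3p, miR-130b-3p, miR-301a-3p and miR-301b-3p, which overlap the miR-122-5p match by 3 or 4 bases. Between e12.5 and adult, miR-19b-3p went from 0.382 to 0.0254% of all miRNA reads and miR-301a-3p from 0.180 to 0.0177%. miR-19a-3p went from 0.212 to 0.00828% and miR-130b-3p from 0.0183 to 0.000323%, while miR-130a-3p went from 0.0119 to 0.0255%. Which miRNA guided Ago there was not tested. The deposited conservation score of the miR-122-5p match, which runs from 0 to 1, was 0.186.

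In every library the strongest mRNA cluster of Slc40a1 lay in the coding sequence, at a match of miR-142a-3p, an miRNA of blood cells. The cluster had 20.9, 18.2, 80.2, 73.7 and 28.6 rpm from e12.5 to adult, which was 27.6, 18.2, 43.0, 32.7 and 32.8% of the Slc40a1 reads. miR-142a-3p held 32.2, 37.1, 23.9, 8.88 and 4.34% of the miRNA reads, so its share was highest at e12.5 and e15.5, where the cluster was lowest. The conservation score of this match was 1.

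In the 3′UTR of Slc40a1, the miR-136-5p match 1095 bases after the stop codon had 13.9, 16.3, 30.2 and 24.4 rpm up to P7 and was not listed in adult liver, where miR-136-5p was down to 0.0326% of the miRNA reads from 2.40% at P7. A cluster with a miR-34a-5p match that lies 10 bases further on was still listed in adult liver, with 3.42 rpm. Another miR-136-5p match, in the Tfrc coding sequence, had 23.0, 42.9 and 0.615 rpm from e12.5 to e18.5 and was not listed at P7, where the miRNA was still at 2.40%.

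**Figure D4:**
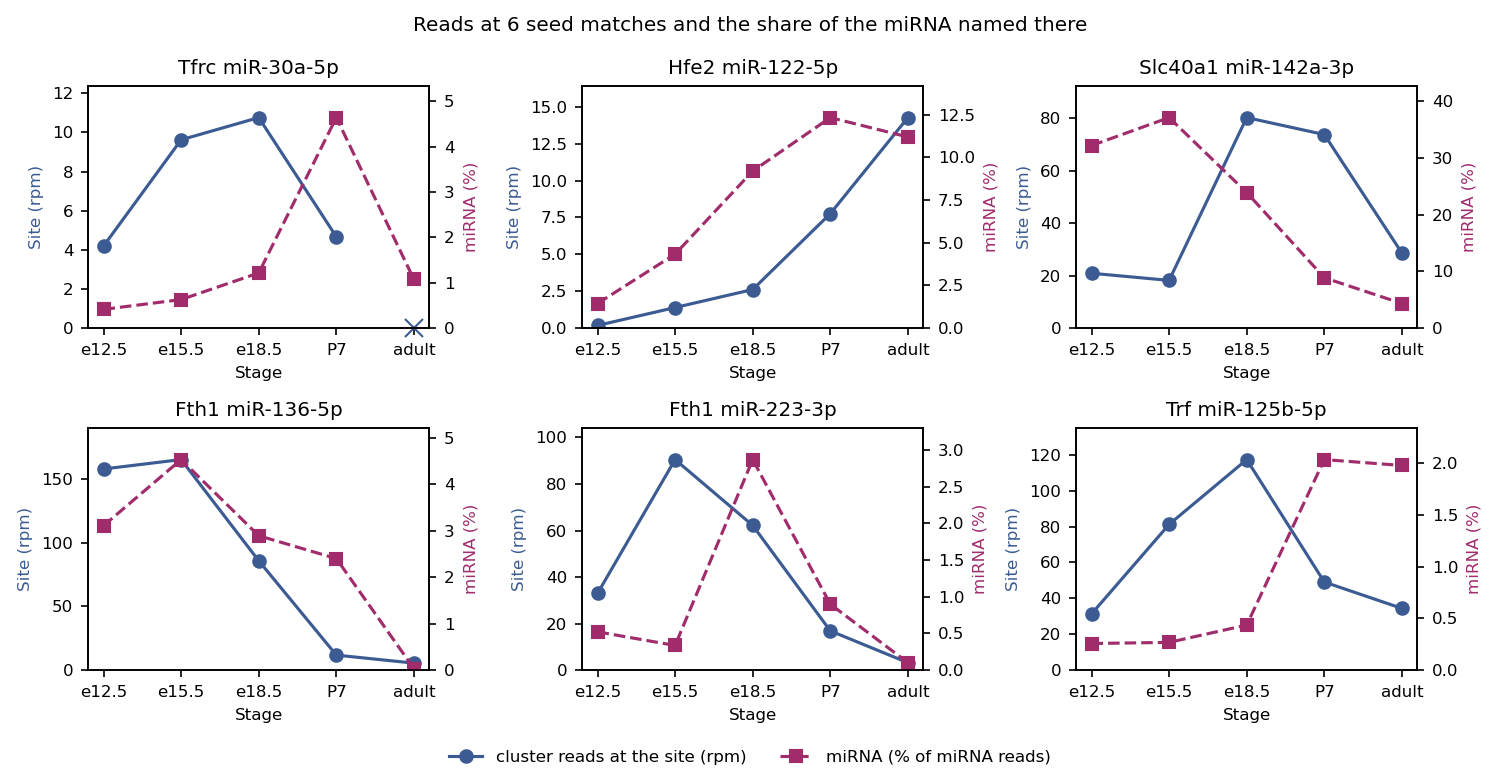
Reads at 6 seed matches (blue circles, left axis, rpm) and the share of the library's miRNA reads held by the miRNA named there (purple squares, right axis, percent) by stage, with both axes linear from 0 and a cross where no site was listed. For Hfe2 and miR-122-5p the site rises from 0.178 to 14.3 rpm and the miRNA from 1.44 to 11.2%, and for Slc40a1 and miR-142a-3p the highest points of the curves fall at different stages.

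The reads of Fth1 lay almost wholly in clusters listed in the coding sequence, 95.5 to 99.6% of them. At e15.5 clusters with 155 of the 330 rpm were listed as intron as well. The match of miR-136-5p had 158, 165, 85.9, 11.8 and 5.47 rpm from e12.5 to adult. As a share of Fth1 reads these were 65.4, 50.0, 29.2, 11.8 and 12.98%. The embryonic values stood far above both others, as they did for the gene as a whole. miR-136-5p held 3.11, 4.53, 2.89, 2.40 and 0.0326% of the miRNA reads. A match of miR-223-3p, an miRNA of myeloid cells, had 32.9, 90.5, 62.2, 16.8 and 3.17 rpm. It lies in the same cluster in every library, so the reads at the pair of matches are not separate.

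Trf had a match of miR-125b-5p in its coding sequence with 31.3, 81.2, 117, 49.1 and 34.4 rpm from e12.5 to adult, which was 12.2, 11.6, 6.04, 2.43 and 2.58% of the Trf reads. miR-125b-5p held 0.257, 0.268, 0.436, 2.04 and 1.98% of the miRNA reads, so its share was highest where the share of the match was lowest. For Ftl1, the match with the most reads among those in all libraries was an 8mer of miR-28a-5p in the 5′UTR with 19.1, 13.3, 6.76, 8.67 and 4.22 rpm, although miR-28a-5p held no more than 0.0113% of the miRNA reads of any library.

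In all, 853 miRNAs had a match in at least 1 of the 10 genes. Those with a match in an mRNA region of Slc40a1 held 53.7, 53.3, 44.4, 52.9 and 52.4% of the miRNA reads. Those with such a match in Tfrc held 47.3, 34.4, 37.5, 40.3 and 17.3%, from 318, 234, 133, 121 and 18 miRNAs (39.1, 27.4, 25.3, 35.6 and 17.3% with at least 7 matched bases). Those with such a match in Hfe2 went from 2.37% at e12.5 to 23.5% at P7 and were at 17.9% in adult liver. Those with such a match in Hamp held no more than 0.572%.

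By region, the mRNA clusters of the 10 genes lay in the 3′UTR for 36.6, 38.5, 33.3, 26.7 and 22.4% from e12.5 to adult, and those of all genes for 41.5, 40.4, 38.0, 36.9 and 29.7%. A cluster listed under several regions counts in each. The 3′UTR clusters of the 10 genes numbered 48 at first and 26 in the adult library, and those of Tfrc among them 29 and 1. In types of seed match the 10 genes had 54.5 to 56.7% 6mers, against 51.2 to 52.7% over all genes, and 6.07 to 7.91% 8mers, against 7.94 to 9.09%. The median conservation score of their matches was 0.619 to 0.708, against 0.857 to 0.936 over all genes.

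The gene with the most similar course over the 5 libraries, by Euclidean distance in log2(rpm + 1), was Xpo7 for Tfrc, with 252, 511, 188, 33.9 and 5.38 rpm and a distance of 0.86. Xpo7 encodes a nuclear transport receptor. For Tfr2 it was Cpn1 (distance 0.63), a carboxypeptidase that hepatocytes secrete, and for Hfe2 it was Dmgdh (0.86), a mitochondrial enzyme of choline breakdown, with 1.34, 4.72, 51.1, 41.2 and 58.4 rpm. For Trf it was the overlapping Gm20425. For Fth1 it was Tnrc6b (0.67), which encodes a partner of Ago, for Ftl1 Grik3 (0.48) and for Slc40a1 Rnf213 (0.74).

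A wider list of 58 iron genes was read in the same way, of which 57 were in the tables and 56 passed the filter. At e18.5 against e12.5, 8 were called higher and 5 lower, in adult liver against P7 2 and 7, and in adult liver against e12.5 8 and 19. Of all genes, 11.5% were called higher and 13.0% lower in the first of these, 2.03 and 14.0% in the second and 8.04 and 29.5% in the last. Their median ratios were -0.06, -0.52 and -0.89, against the all-gene medians of -0.08, -0.69 and -1.08. The calls moved with the scale. When scaled to mRNA clusters, Bmp2 (2.11), Heph (4.15) and Blvra (2.65) also passed as higher in adult liver against P7. Cybrd1 (-2.44) then passed as lower, while Abcb10 (-1.96), Smad5 (-1.98) and Smad6 (-1.94) were among those that no longer did. At e18.5 against e12.5 more genes passed as lower, such as Iscu (-2.67) and Alad (-2.31).

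Of the 16 genes of haem synthesis, breakdown and scavenging, 9 were called lower and 4 higher in adult liver against e12.5, with a median of -2.71, where 29.5% of all genes were called lower and 8.04% higher. When scaled to mRNA clusters, Alas1 (2.34) was called higher as well and Cpox (-1.82) no longer lower. Alas2, the erythroid enzyme that starts haem synthesis, had 331, 374, 65.3 and 3.21 rpm at e12.5, e18.5, P7 and adult, a log2 ratio of -6.30 against e12.5. The mitochondrial iron importer of erythroid cells, Slc25a37, had 1177, 498, 108 and 4.42 rpm at these stages and a ratio of -7.76, and Abcb10, which works with it, was at -5.68. In adult liver against P7 the lowest of the list were Lcn2 (-4.96), a siderophore-binding protein, Slc25a37 (-4.33), Alas2 (-3.98) and Abcb10 (-2.39). Alas2 is on the erythroid marker list as well.

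At the other end were plasma proteins of hepatocytes. Hpx, the haem carrier, had 1.52, 29.0, 142 and 231 rpm at e12.5, e18.5, P7 and adult, a log2 ratio of 6.53 against e12.5. Cp, the copper oxidase that loads iron onto transferrin, had 1.47, 59.7, 140 and 161 rpm at those stages (6.03), and Hp, the haemoglobin carrier, had 3.68, 165, 162 and 130 rpm (4.80). Hamp2 was at 6.66, a value that depends on the 1 rpm added, since no cluster was listed at e12.5. At e18.5 against e12.5 the highest of the list were Hp (5.15), Lcn2 (4.85), Cp (4.62) and Hpx (3.58). The highest of the list in adult liver against P7 were Hamp2 at 5.26 and Cd163, the macrophage receptor for haemoglobin bound to haptoglobin, at 2.74, followed by Heph (1.70) and Blvra (1.62), both below the 4-fold limit. Heph had no listed cluster at P7, and Cd163 had 0.303 rpm there, the lowest level that could be listed. The ratios of both thus depend on the 1 rpm added. When scaled to mRNA clusters, Heph (4.15) and Blvra (2.65) passed the 4-fold limit.

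**Figure D5:**
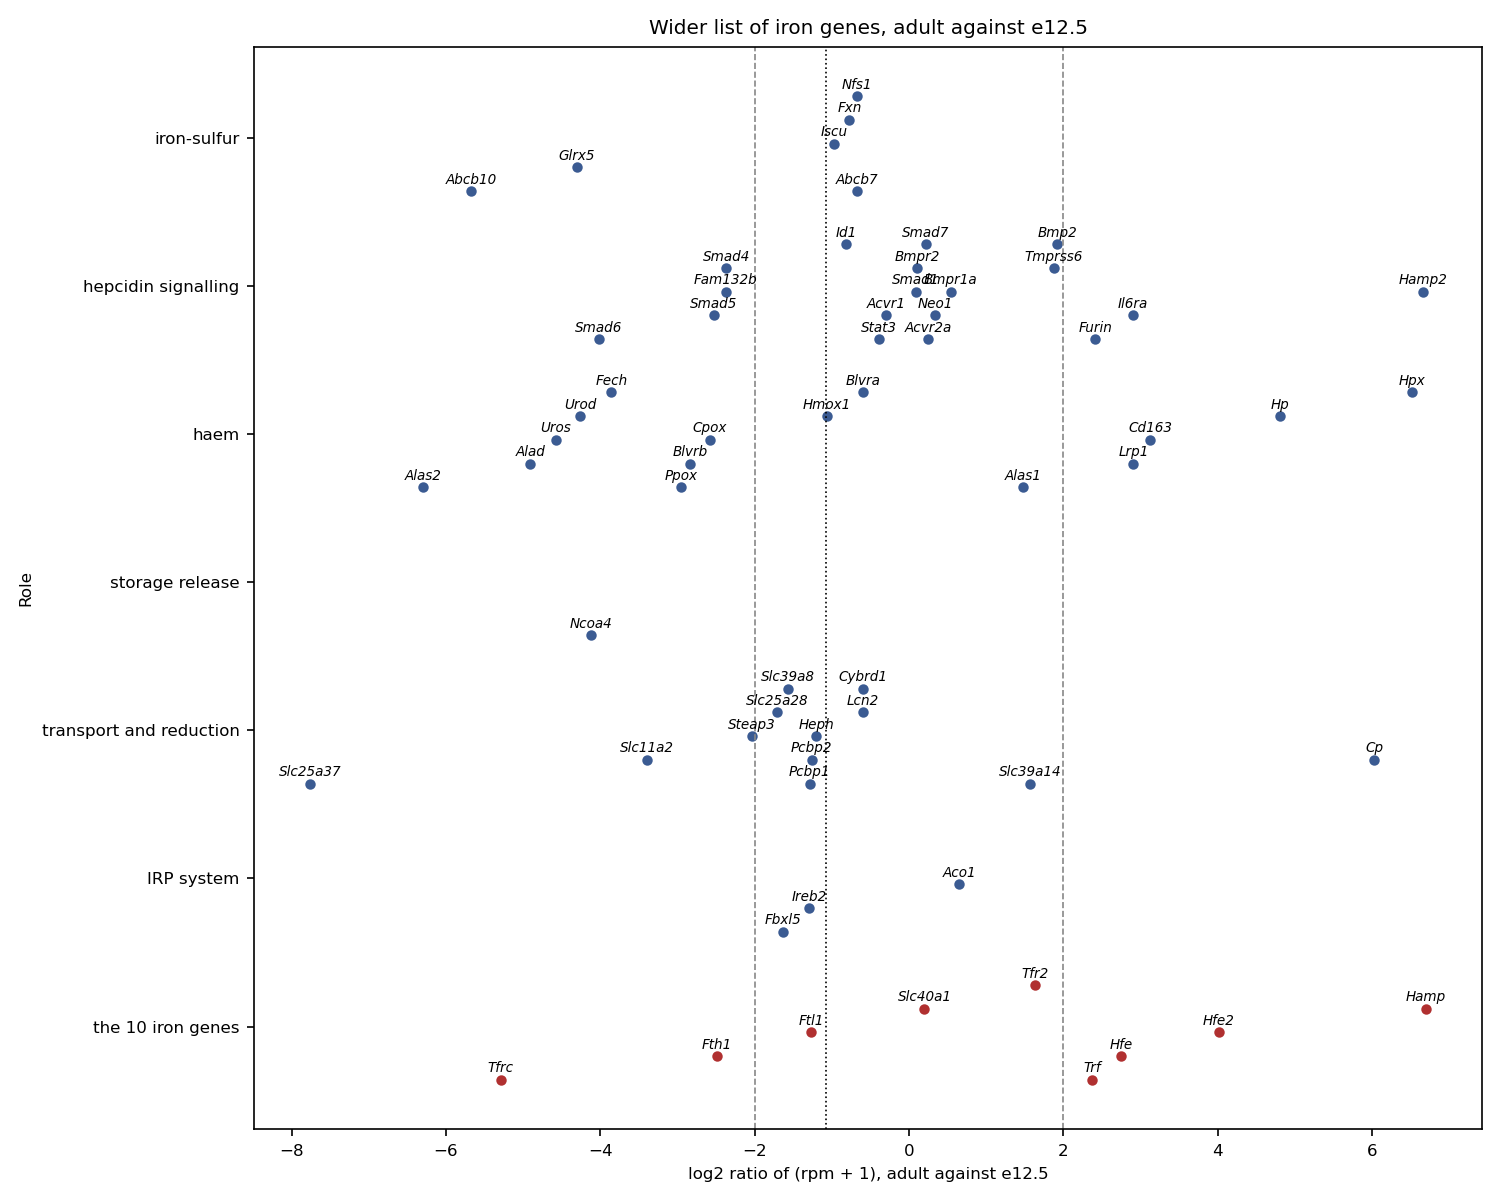
Log2 ratio of (rpm + 1) in adult liver against e12.5 (x axis) for iron genes that passed the filter, by role (y axis, vertical offset within a role has no meaning). The dotted line is the median of all genes, -1.08, and dashed lines are the 4-fold limits. The haem row spreads from -6.30 (Alas2) to 6.53 (Hpx).

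In the hepcidin signalling group of 18 genes, which holds Hamp2, 3 were called higher and 4 lower in adult liver against e12.5, with a median of 0.16, where 8.04% of all genes were called higher and 29.5% lower. When scaled to mRNA clusters, Tmprss6 (2.78) and Bmp2 (2.95) were called higher there as well and Smad4 (-1.75) no longer lower. With all clusters, 4 of the group were called higher and 2 lower at e18.5 against e12.5, against 11.5 and 13.0% of all genes. The lowest of the whole list there were Heph (-2.90), a copper oxidase with no listed cluster at e18.5, the receptor Acvr2a (-2.68), the zinc and iron importer Slc39a8 (-2.65) and Fam132b (-2.38), the hormone of erythroblasts that lowers hepcidin, which was listed at e12.5 with 4.19 rpm and not at e18.5. Acvr2a had 0.384 rpm at e18.5, the lowest level that could be listed there. With a pseudocount of 5 no gene of the list was called lower, so these calls depend on the 1 rpm added. When scaled to mRNA clusters, Bmp2 (-2.35), Smad1 (-2.26) and Smad6 (-2.25) of the group were called lower as well. Of the 3 genes of the IRP system, Ireb2, Aco1 and Fbxl5, none was called in any of the 3 comparisons, and their median was -1.30 in adult liver against e12.5. The iron-sulfur group of 6 had 2 called lower there, with a median of -0.87, and of the 12 transport genes that passed, 1 was called higher and 3 lower, with a median of -1.27, against the same shares of all genes. Among the transport genes, Slc39a14 (2.40) was called higher as well and Steap3 (-1.36) no longer lower when scaled to mRNA clusters. At e15.5 Slc25a37 had 1264 rpm and Alas2, as given above, 663 rpm, and both were lower at e18.5, where the summed erythroid markers were highest. Both and the markers were lowest in adult liver, and the part of erythroid cells in these values was not tested.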

How the data were processed

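Ago HITS-CLIP libraries of mouse liver at 5 stages were analysed from 1 deposited table of miRNA-target interactions each. The 10 genes, the wider iron list and the marker lists were chosen with earlier results of these data known. The authors mapped reads with Bowtie, joined overlapping reads into clusters and scanned these for seed matches. The labels list mm9 and mm10, the study's methods name mm10, and the target fragments stood at their mm10 positions. The version of Bowtie is not given in the sources used here. For each seed match the authors gave a signal, the highest read number as a whole number of at least 5, without scaling to the library. The deposited conservation score runs from 0 to 1, and the deposited free energy score was not used. The number in each interaction name was taken as the miRNA's reads, which the files do not state.

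Each embryonic table holds 2 lists. Reads were added over them, and overlapping clusters on the same strand were counted once. Levels are reads per 1000000 summed cluster reads, with exact Poisson 95% intervals, and shares have exact binomial ones. PCR reads are not independent molecules, so both cover counting error only. The depth was 13008703 to 44867326 cluster reads and 7781484 to 25546696 miRNA reads per library. Ratios used log2(rpm + 1), a mean of at least 1 rpm and a 4-fold limit. With 1 sample per stage no test was run. Named were all 10 genes, the 4 highest and 4 lowest of the wider list in each comparison, matches listed in all libraries, otherwise up to 3 per gene with most reads, up to 3 miRNAs per gene and library with most reads and a 3′UTR match of at least 7 bases, and the nearest gene by distance. The miR-136-5p match of Slc40a1, the miR-486a-5p and miR-136-5p matches of Tfrc, and the values of all stages for genes of the wider list, were chosen after their values were seen. UTRs and distances follow GENCODE M21. A gene of the wider list, left out of its plot but kept in the counts, and a match are not reported here. The ratio step was tested on simulated data. Python 3.11.15, numpy 2.4.6, pandas 2.3.3, scipy 1.17.1 and matplotlib 3.10.9 were used. Other limits, scalings, pseudocounts, filters and the lists by themselves were tried as alternatives.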

Additional observations from a re-analysis of the deposited data

How the results depend on the processing

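No paired analysis was possible because each stage has 1 sample here. The study's methods and supplement speak of replicates, which were not analysed here as separate samples, since no label ties them to the lists of the embryonic tables. Tfrc, Hamp and Hfe2 stayed past the 4-fold limit under every alternative run on their ratios, in each comparison where they were called. Calls were lost for Trf in adult liver against e12.5 with the first list only (1.47), for Hfe there with a pseudocount of 5 (1.10) and for Fth1 there when scaled to mRNA cluster reads (-1.73), where Tfr2 (2.49) passed, as did Bmp6 (2.80) there and in adult liver against P7, although its mean is under 1 rpm. Tfr2 also passed with the second list (2.22), and Ftl1 with the first (-2.19). Uncalled ratios changed sign for Tfr2 with the second list (-0.95) and Fth1 with the first (-0.36), both at e18.5 against e12.5, and for Slc40a1 with the first (-0.12) in adult liver against e12.5. Trf gave no value without other genes in the cluster. The causes were not tested.

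Counts over all genes followed the settings. At e18.5 against e12.5, 1672 genes were called higher and 1896 lower. The counts were 500 and 317 with a pseudocount of 5, 978 and 845 with a mean of at least 5 rpm, 3660 and 4212 at 2-fold, and 4725 lower when scaled to mRNA cluster reads. In adult liver against P7 the 295 higher and 2036 lower became 130 and 477 with a pseudocount of 5, 1556 and 3936 when scaled to mRNA cluster reads, 1014 and 5679 at 2-fold, and 190 higher with a mean of at least 5 rpm. In adult liver against e12.5 the 1168 higher and 4284 lower became 641 and 1722 with a pseudocount of 5, 2156 and 7520 at 2-fold, and 2938 higher when scaled to mRNA cluster reads. In the wider list, a pseudocount of 5 left 0 genes lower at e18.5 against e12.5 in place of 5, and 1 higher and 3 lower in adult liver against P7 in place of 2 and 7. The 244 pairs listed in all 5 libraries were 111 with at least 7 matched bases, and 35 of 227 joined cluster spans were in all 5. The 853 miRNAs were 132 when limited to the 100 with most reads in a library. The limit of 5 reads per cluster was 0.111 rpm in the deepest library and 0.384 rpm in the shallowest.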
